A study of Rattus norvegicus with 11 samples.

Results

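The Rab family of small GTPases was examined in rat medial prefrontal cortex after heroin self-administration, with yoked saline rats as controls. Rab members were taken as every non-control probe whose gene name is Rab followed by a number and an optional letter, which left out Rab effectors, Rab-interacting proteins and Rab7l1. This gave 75 probes for 47 gene names, of 41012 probes on the array. The rule uses the name alone and no measured value. The name Rab2l matched the rule, but the accession printed with its probe belongs to the gene that RefSeq now calls Ralgdsl2, so it is a Rab by its old array name only. The array's Rab1, Rab2, Rab7, Rab9 and Rab39 are the genes now called Rab1a, Rab2a, Rab7a, Rab9a and Rab39a.

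Male rats aged 4 months were compared in 2 groups. The heroin group (6 rats) licked a spout for intravenous heroin in daily sessions, and the saline group (5 rats) never received heroin but was infused with saline whenever a matched animal earned a dose. Both groups then spent 14 days without drug in the home cage and were returned to the chambers for an extinction session, with no drug given, just before the tissue was taken. The strain is not given in the sources used here. Total RNA from the cortex medial to the forceps minor of each rat was labelled with Cy3 and hybridised to its own Agilent rat array, so each array is 1 rat. The comparison asks which transcripts differ in this tissue between rats with and without a history of heroin after abstinence and extinction, and because every rat had the extinction session, no value here separates heroin history from the response to extinction.

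Rab proteins are small GTPases that sit on the surface of membrane compartments and decide where vesicles are made, moved, tethered and fused. Each cycles between a GTP-bound state, in which it recruits effectors such as tethers and motors, and a GDP-bound state, in which a GDP dissociation inhibitor (GDI) takes it off the membrane. Guanine nucleotide exchange factors (GEFs) switch Rabs on and GTPase-activating proteins (GAPs) switch them off. In neurons, Rab3 and Rab27 proteins act on secretory and synaptic vesicles, Rab5, Rab4 and Rab11 on endocytosis and recycling of receptors in axon and dendrite, and Rab1, Rab2 and Rab6 on traffic between the endoplasmic reticulum (ER) and the Golgi.

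The family was read through short probes. All 75 Rab probes were 60 bases long, with a GC content of 23.3% to 73.3% and a median of 41.7%. Positions are those the array files give on the rat build rn3, and 25 of the 75 probes span more genome than their own length, that is, they cross an exon junction. Rab2b is shown because it had the only Rab probe past both thresholds below, and its 4 probes gave different sizes of change. Bases 16 to 45 of each are printed 5′ to 3′ in the sense of the transcript, with no capitals since nothing is compared. All 4 lie on the minus strand of chromosome 15.
Rab2b probe A_44_P610320, chr15:27724127-27724185: ggaccagttctagcattacagtttctttca
Rab2b probe A_44_P635400, chr15:27723282-27723341: tcaaataagtagggacctttttacccacac
Rab2b probe A_44_P478104, chr15:27725178-27726340: tacataggaagatccagcaaggtttatttg
Rab2b probe A_44_P478110, chr15:27727632-27732357: gattgggaataagagtgatctagaatctcg

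Rab5c is shown because its groups did not overlap on 2 of its 3 probes. Bases 16 to 45 of those 2 probes, both on the minus strand of chromosome 10, read as follows.
Rab5c probe A_44_P187374, chr10:89667533-89667592: acctgcacctttctgtacaaatactaattc
Rab5c probe A_43_P14252, chr10:89666965-89667024: accaatcagtatcttgtcaatatagtcagc

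Close paralogs could share signal on such probes, so every Rab probe was set against every probe of another Rab gene (2738 pairs). The most alike were Rab5a probe A_43_P12299 and the third Rab5c probe, A_44_P185504. They share 44 bases within the stretch where the 60-base probes overlap after a shift of 4. The longest run of identical bases was 13, between Rab3a probe A_43_P11661 and Rab3b probe A_43_P12510. The 30-base windows below carry, in capitals, the 26 bases at which the Rab5 windows match and the 13 bases of the Rab3 run. Whether either pair binds the other gene's transcript was not tested.
Rab5a, chr9:1492943-1499629, minus strand: AATGAAATaTTtATGGCaATAGCTAAaAAG
Rab5c, chr10:89667823-89668316, minus strand: AATGAAATtTTcATGGCgATAGCTAAgAAG
Rab3a, chr16:19190470-19190529, minus strand: acctttgaaCGTCTGGTGGACGtgatctgt
Rab3b, chr5:130288754-130288813, plus strand: gccttcgagCGTCTGGTGGACGccatctgc

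Signals are given in array medians: the background-corrected signal of a probe divided by the median signal of all non-control probes on the same array. A change is the heroin mean minus the saline mean on the log2 scale, with its standard error (SE) and the unadjusted or Benjamini-Hochberg adjusted p of limma's two-sided test over 25555 probes detected on all 11 arrays. A probe was called when its unadjusted p was below 0.02 and its change at least 1.4-fold. Both cutoffs are those of the study's methods, which applied them to an analysis of variance instead of limma. With that test 0 of 69 Rab probes were called, beside 308 of all 25555 probes. At an unadjusted p below 0.05 in that test there were 16 Rab probes, beside 4127 of all probes. Signals of different probes are not compared with each other.

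The raw array medians ran from 42.7 to 78.3 in heroin rats and from 58.0 to 83.2 in saline rats, with 28185 to 33835 probes detected per array. Of 11 neuron markers 11 were detected on every array, and no gene of the neuron, oligodendrocyte, astrocyte, microglia, endothelium, blood or striatum lists was called. The summed level of each list overlapped between the groups (neuron list 774 to 1137 in heroin rats and 639 to 1045 in saline rats), and of 7 striatal genes 5 were detected on every array, all but Drd2 and Gpr6. The median change of all 25555 probes was 0.18 after this scaling and 0.01 after quantile normalization, so the changes below should not be read against 0. Nor is 0.18 the reference at every brightness. In 4 bins of probes, from dimmest to brightest, the median change was -0.01, 0.14, 0.23 and 0.24. The scaling also set the split of calls over all probes, 457 higher and 237 lower in heroin rats here, 33 and 746 with the 75th percentile, 42 and 633 with the median of detected probes, and 218 and 239 with quantile normalization. Every saline array lay at position 3 of its slide and every heroin array at position 4, so position and group cannot be told apart. Of 6 scans, 5 each held 1 saline and 1 heroin array. Heroin rat 6, with the lowest array median, and saline rat 5 got the lowest array weights (0.26 and 0.34, against 0.60 to 3.45 in the others).

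The Rab family was broadly expressed in this tissue, and few of its probes separated the groups. In tissue of mixed cell types, fewer cells of a type and less RNA per cell cannot be told apart for any value below. Of the 75 probes, 69 probes for 44 of the 47 genes were detected on all arrays with enough usable spots to be tested. Not tested for any probe were Rab25, a Rab of epithelial recycling endosomes detected on 1 array, Rab33b on 9 arrays and Rab39 on 10. Rab25 signals ran from 0.072 to 0.298 array medians, Rab33b from 0.211 to 0.514 and Rab39 from 0.215 to 0.722, and in all 3 genes the groups overlapped. A second probe each of Rab38 and Rab40c was not detected on all arrays, and a second Rab31 probe had usable spots on only 4 arrays. The median standard error of the 69 changes was 0.15 log2, with a range from 0.11 to 0.35, against a median of 0.16 over all probes tested.

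A single Rab probe of 69 (1.45%) passed both thresholds, against 2.72% of all probes tested. In the heroin-higher direction the background was 1.79%. No Rab probe reached an adjusted p of 0.05 in limma, and the lowest adjusted p among Rab probes, 0.263, was also the lowest over all probes. At an unadjusted p below 0.05 there were 19 Rab probes (27.5%) against 18.5% of all probes, but after quantile normalization 1 Rab probe (1.45%) against 7.71%. The heroin mean was the higher one for 62 of 69 Rab probes (89.9%, background 78.7%), and after quantile normalization for 38 of 69 (55.1%, background 53.2%). The groups did not overlap for 3 of 69 Rab probes (4.35%, background 1.78%), which were 2 of Rab5c and 1 of Rab12. The Rab12 probe had usable spots on 6 arrays and 1 of the Rab5c probes on 8, and fewer values separate more easily. Only 1 of the 3, of Rab5c, was measured on all 11 arrays. The backgrounds in this paragraph were not matched for brightness. Most Rab probes were among the brighter ones, where the changes of all probes were also higher. The excesses above were therefore not separated from brightness.

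The called probe reads Rab2b, a Rab of the Golgi region. The saline rats 2 to 6 had signals of 5.79, 6.08, 7.34, 10.2 and 6.67 array medians, and the heroin rats ran from 8.82 through a median of 10.1 to 11.1. Saline rat 5 lay within the heroin range and the other 4 saline rats lay below it. The change was 0.52 (SE 0.15, 1.43-fold, unadjusted p = 0.00346, adjusted p = 0.263 by limma). After quantile normalization the change was 0.28 with an unadjusted p of 0.0185, and the probe was no longer called. Within the 5 scans that held both groups, the differences were 0.61, 0.82, 0.43, -0.02 and 0.74, so 4 of 5 ran the same way. The call was also lost without saline rat 2 (change 0.45, unadjusted p = 0.0118) and without saline rat 3 (change 0.46, unadjusted p = 0.0124), where the change fell under 1.4-fold.

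The other 3 Rab2b probes had smaller changes. The brightest, A_44_P635400, had 29.8, 31.1, 31.1, 41.8 and 31.7 array medians in the saline rats and 39.0 to 43.9 in the heroin rats, with a median of 40.4. Its pattern over rats was the same, with saline rat 5 inside the heroin range and the others below. The change was 0.31 (SE 0.12, adjusted p = 0.263). The 2 probes that cross exon junctions had changes of 0.21 (SE 0.13) and 0.25 (SE 0.12), and after quantile normalization -0.03 and 0.01. The 4 probes thus spanned 0.31 log2, the widest range among the 17 Rab genes with several tested probes, whose median range was 0.10.

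**Figure D1:**
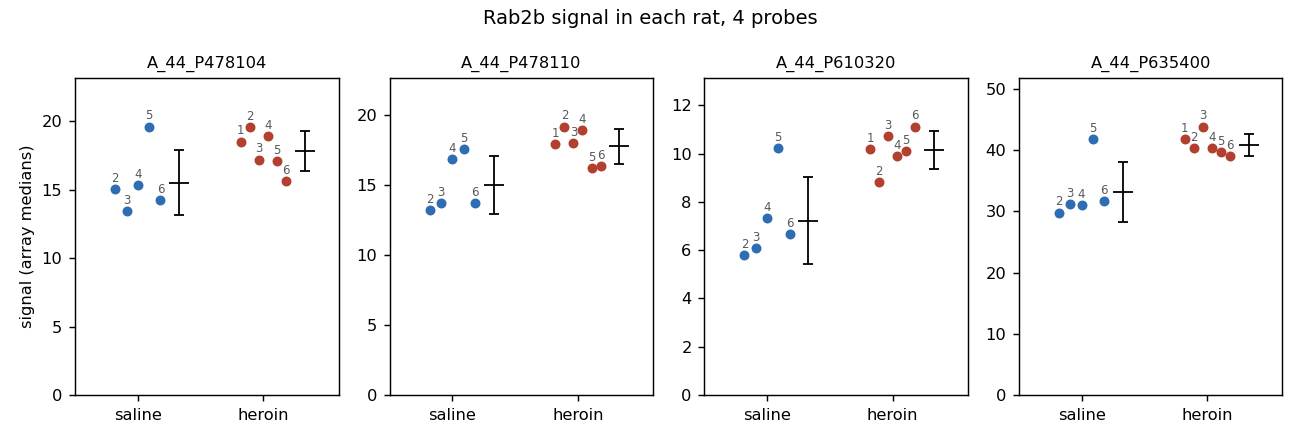
Signal of the 4 Rab2b probes in each rat, in array medians (vertical axis, linear from 0), with saline rats in blue, heroin rats in red, rat numbers above the points and mean ± SD as black bars (5 saline and 6 heroin rats). In the called probe, A_44_P610320, saline rat 5 (10.2) lies among the heroin rats (8.82 to 11.1) and the other 4 saline rats lie below them.

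Rab5c, which with Rab5a and Rab5b directs fusion at early endosomes, was the only Rab gene whose groups did not overlap on a probe measured in all 11 rats. On that probe, A_44_P187374, the saline rats had 28.5, 28.0, 28.0, 28.9 and 23.9 array medians, and the heroin rats ran from 31.8 through 33.3 to 39.6. All 6 heroin values exceeded all 5 saline values. The change was 0.34 (SE 0.11, 1.26-fold, unadjusted p = 0.0103, adjusted p = 0.263), which is under the 1.4-fold threshold, and after quantile normalization it was 0.10 (unadjusted p = 0.356).

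The brightest Rab5c probe, A_43_P14252, had usable spots on only 8 of 11 arrays, with 73.1, 79.2, 83.5 and 70.8 array medians in saline rats 2, 3, 4 and 6 and 96.9 to 120 in 4 heroin rats. These groups did not overlap either. The change was 0.44 (SE 0.15, adjusted p = 0.263). On the third probe, the one most like Rab5a, heroin rat 6 (7.44) lay among the saline rats (7.18 to 8.90) and the other 5 heroin rats (11.1 to 12.3) above them, for a change of 0.39 (SE 0.14). After quantile normalization the 3 probes had changes of 0.14, 0.15 and 0.10, all still positive.

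In the other Rab5 genes the groups overlapped. Rab5a had 1.38, 1.45, 1.14, 2.09 and 1.84 array medians in saline rats and 1.65 to 2.57 in heroin rats, a change of 0.35 (SE 0.17, adjusted p = 0.275), and 0.25 after quantile normalization. Rab5b had 1.99, 1.95, 1.78, 1.54 and 1.86 in saline rats and 1.01 to 2.25 in heroin rats, a change of -0.15 (SE 0.18, adjusted p = 0.589). The heroin rats enclosed all saline values of Rab5b. The difference between the 3 changes was not tested.

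Among the other 10 tested genes of early and recycling endosomes, none was called. Counting the Rab5 genes, the 13 genes had a median change of 0.23, with 10 of 13 heroin means higher (78.7% of all probes), and a median of -0.01 after quantile normalization with 6 of 13 higher (53.2% of all probes). Rab11a, which returns receptors from recycling endosomes to the surface, had 3 probes with changes of 0.38, 0.31 and 0.45 (SE 0.15, 0.13 and 0.19). On its brightest probe the saline rats had 32.0, 31.2, 39.7, 50.2 and 36.3 array medians and the heroin rats 44.2 to 61.3, so only saline rat 5 reached the heroin range. Its paralog Rab11b had a change of 0.27 with a wider error (SE 0.22), which was 0.45 without heroin rat 6 and 0.17 without heroin rat 3.

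Rab4b, of the fast recycling route, had 4.75, 3.74, 4.28, 5.30 and 4.13 array medians in saline rats and 5.09 to 6.59 in heroin rats. Again saline rat 5 alone overlapped the heroin rats. The change was 0.34 (SE 0.13, adjusted p = 0.263), and that of Rab4a, its close paralog, was 0.18 (SE 0.14). Rab21, which carries integrins, had a change of 0.41 (SE 0.18) that was 0.28 without heroin rat 6. Rab14, between the Golgi and endosomes, had a change of 0.23 (SE 0.18).

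The lowest changes of the whole family were also in this group. Rab35, of a recycling route from the surface, had 3.75, 3.44, 2.97, 2.07 and 3.34 array medians in saline rats and 1.80 to 3.63 in heroin rats, with a median of 2.63. The ranges overlapped almost throughout. The change was -0.21 (SE 0.19, adjusted p = 0.475), -0.43 with the 75th percentile, -0.40 after quantile normalization (unadjusted p = 0.0888) and -0.13 with normexp background correction, and between -0.35 (without saline rat 5) and -0.10 (without heroin rat 6) with 1 rat left out. Rab15, a Rab of early endosomes enriched in nervous tissue, had 576, 621, 725, 526 and 500 array medians in saline rats on its brightest probe. The heroin rats ran from 188 through 630 to 829, and the 188 was heroin rat 6. The change was -0.09 with the second largest error of the 44 genes (SE 0.30) and turned to 0.21 without heroin rat 6, and the other Rab15 probe had 0.17 (SE 0.14).

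**Figure D2:**
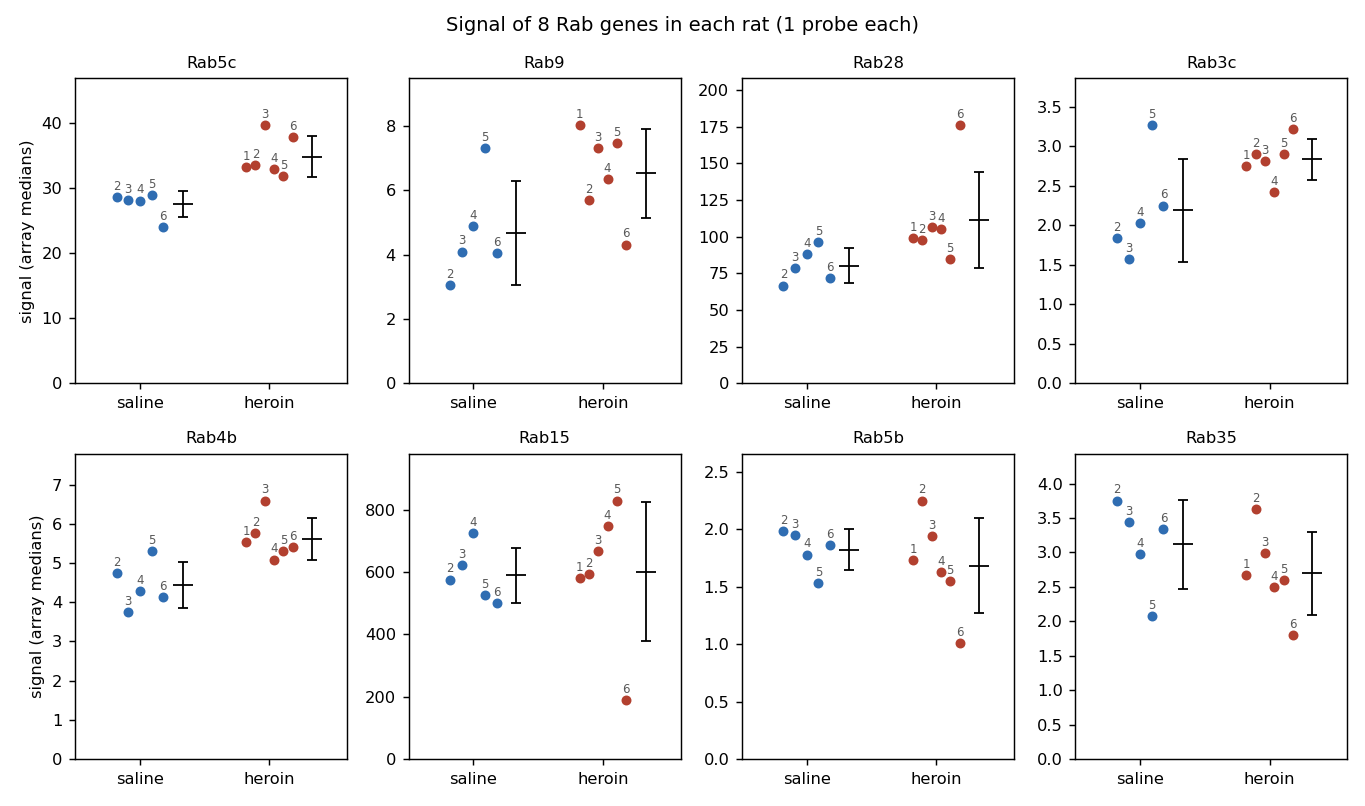
Signal of 8 Rab genes in each rat, 1 probe each (A_44_P187374 for Rab5c, the brightest tested probe for the others), in array medians on linear axes from 0. Blue points are 5 saline rats, red points 6 heroin rats, numbers are rat numbers and black bars mean ± SD. Rab5c separates the groups (at most 28.9 against at least 31.8). Saline rat 5 lies in the heroin range in Rab4b and, with saline rat 4, in Rab9, and above it in Rab3c. Heroin rat 6 stands apart in Rab28 and Rab15.

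None of the 7 genes of regulated secretion was called, and 2 had an unadjusted p below 0.05 (18.5% of all probes). Their median change was 0.22, and -0.02 after quantile normalization. Rab3c, of the Rab3 family on synaptic vesicles, had 1.84, 1.57, 2.03, 3.27 and 2.25 array medians in saline rats and 2.42 to 3.21 in heroin rats. Saline rat 5 was the highest of all 11 rats and the other 4 saline rats were the lowest. The change was 0.41 (SE 0.17, unadjusted p = 0.0263, adjusted p = 0.263), and 0.28 after quantile normalization.

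Rab3a, the main Rab3 of synaptic vesicles, had 22.5, 16.9, 13.2, 28.2 and 23.6 array medians in saline rats and 11.9 to 33.0 in heroin rats. Heroin rat 6 was the lowest of all rats and heroin rat 3 the highest. The change was 0.22 (SE 0.25, adjusted p = 0.576), with 0.42 without heroin rat 6 and 0.07 without saline rat 4. Rab3b had changes of 0.21 and 0.13 on its 2 probes (SE 0.17 and 0.16), and Rab3d, known from exocrine granules, of 0.09 and -0.01. Rab26, also a Rab of secretory and synaptic vesicles, had 116, 106, 107, 157 and 114 array medians in saline rats and 133 to 159 in heroin rats, with a change of 0.31 (SE 0.13, adjusted p = 0.263). Only saline rat 5 lay in the heroin range. Rab27a and Rab27b, which dock secretory granules, had changes of 0.24 (SE 0.16) and -0.05 (SE 0.16), and a second Rab27b probe had 0.14.

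None of the 8 tested genes of ER-to-Golgi and Golgi traffic was called on its brightest probe. Their median change was 0.25, and 0.00 after quantile normalization. Rab1, which acts in traffic from the ER to the Golgi, had a change of 0.30 (SE 0.14) and a second probe 0.32. Rab2, the paralog of Rab2b, had a change of 0.27 (SE 0.13). Rab6b, the neuronal form of the Golgi Rab6, had 590, 641, 721, 711 and 626 array medians in saline rats and 716 to 1076 in heroin rats on its brightest probe. The highest value was heroin rat 6, and the lowest heroin rat lay just under the highest saline rat. The change was 0.31 (SE 0.13, adjusted p = 0.263), and the paralog Rab6a had 0.13 (SE 0.13). Rab18, of ER and lipid droplets, had 0.19 (SE 0.15). Rab43, of the Golgi, had -0.04 (SE 0.14), and -0.03 after quantile normalization. Its probe was dim (0.83 array medians in heroin rats and 0.85 in saline rats). The dimmest bin of all probes had a median change of -0.01.

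None of the 4 genes of post-Golgi traffic, the 5 of late endosomes and lysosomes or the 3 linked to cilia was called. Rab8a, Rab8b and Rab10, which carry cargo to the surface, had changes of 0.26, 0.22 and 0.31 (SE 0.13, 0.13 and 0.17). The 3 Rab10 probes were not alike, at 0.31, 0.15 and 0.05, and the last 2 have a run of 35 bases in common. Rab7, which drives late endosomes to lysosomes, had 8.62, 8.69, 13.0, 17.5 and 11.2 array medians in saline rats and 11.8 to 16.8 in heroin rats, a change of 0.37 (SE 0.18, adjusted p = 0.275). Saline rat 5 was the highest of all rats.

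Rab9, of traffic from late endosomes back to the Golgi, had the largest change of the 44 brightest probes, 0.51 (SE 0.21, 1.43-fold). The saline rats had 3.04, 4.09, 4.87, 7.31 and 4.04 array medians and the heroin rats ran from 4.31 through 6.82 to 8.03. Saline rats 4 and 5 lay in the heroin range, and heroin rats 2, 3, 4 and 6 lay in the saline range, of which saline rat 5 was the top. Its unadjusted p was 0.0285 and its adjusted p 0.263, so it was not called. Rab9b, its paralog, had -0.02 (SE 0.20). Rab28, linked to cilia, had 66.6, 78.7, 87.9, 96.1 and 71.9 array medians in saline rats and 84.7 to 176 in heroin rats. The highest value was heroin rat 6, and the change of 0.45 (SE 0.18, adjusted p = 0.263) was 0.31 without that rat. Among 4 other names, Rab12, Rab40b, Rab40c and Rab2l, the median change was 0.32. The brightest Rab12 probe had usable spots in only 2 heroin and 4 saline rats, with groups that did not overlap (83.2 and 93.5 against at most 81.7) and a change of 0.36 (SE 0.22), while the other 2 Rab12 probes, usable in all rats, overlapped.

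**Figure D3:**
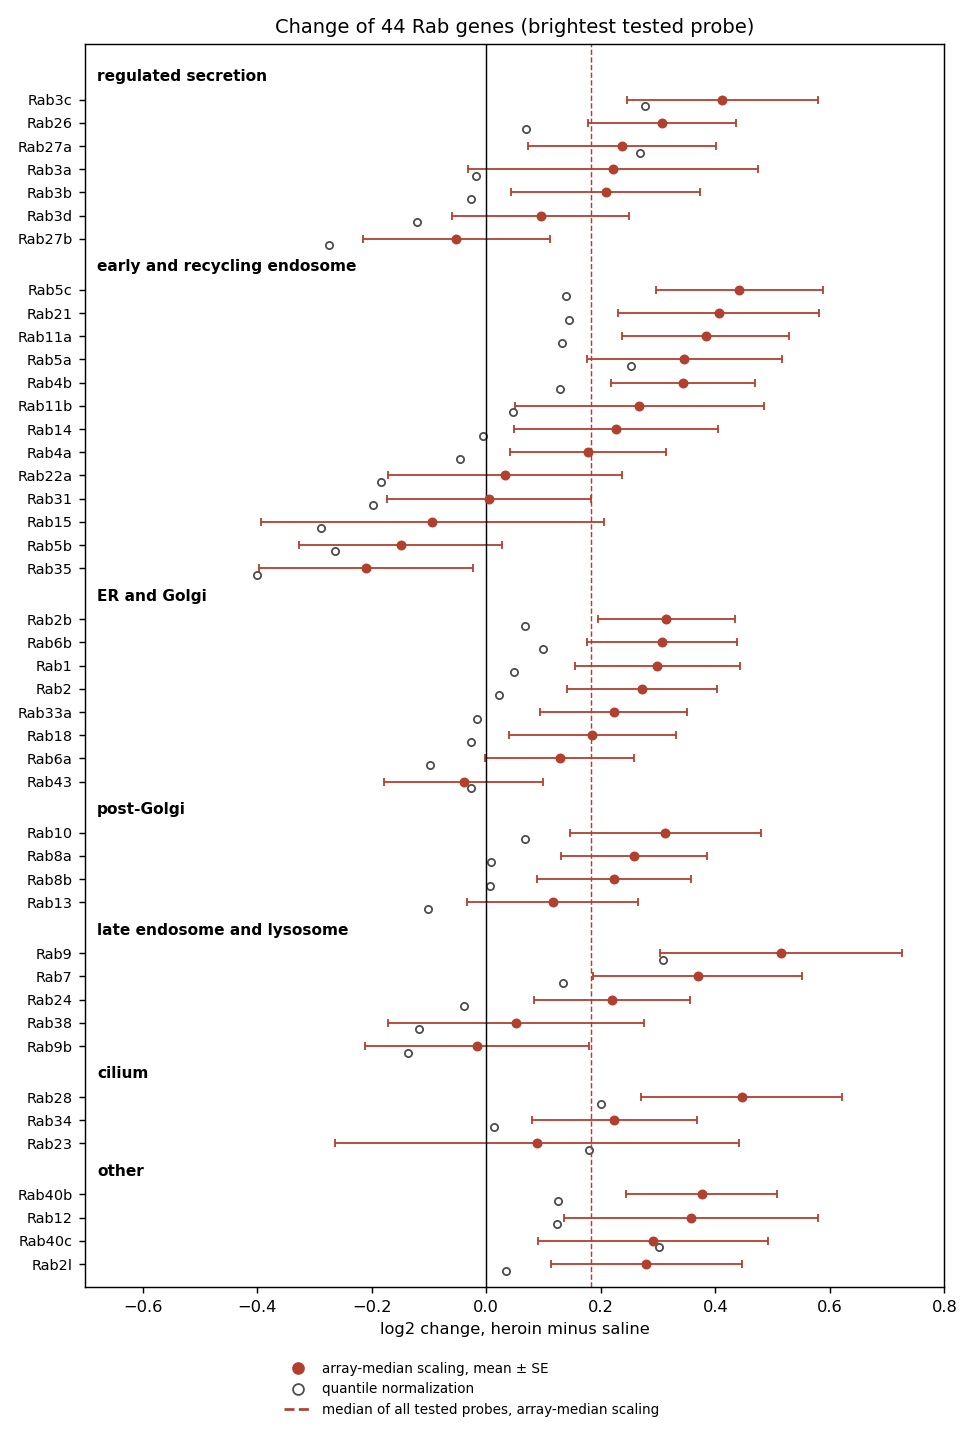
Change of 44 Rab genes, heroin minus saline, on the log2 scale (horizontal axis), for the brightest tested probe of each gene, grouped by the compartment the gene acts in. Red points with bars are the change ± SE after scaling to the array median, open circles the change after quantile normalization, and the dashed line is the median of all tested probes (0.18). Most red points lie around the dashed line, and the circles scatter around 0 with Rab35 (-0.40) lowest and Rab9 (0.31) highest.

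Across the family the changes sat slightly above those of all probes, but not at every brightness. The median of the 69 Rab probes was 0.24 against 0.18 over all 25555, a distance of 0.05, with 47 of 69 Rab probes above the median of all. After quantile normalization both medians were 0.01. The tested probes were also split by brightness into 4 bins of similar size. From bin 1 (dimmest) to bin 4 (brightest), the median change of all probes was -0.01, 0.14, 0.23 and 0.24. The bins held 6, 8, 30 and 25 Rab probes, with median changes of 0.16, 0.06, 0.22 and 0.31. The Rab median was thus the higher one in bins 1 and 4 and the lower one in bins 2 and 3. Junction-spanning probes (23 tested) had a median change of 0.21 and the contiguous ones (46) of 0.29.

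Per rat, the median log2 signal of the 69 Rab probes was 2.96 ± 0.15 in heroin rats (SD, n = 6) and 2.68 ± 0.16 in saline rats (SD, n = 5). The same median over all probes was 1.86 ± 0.08 and 1.67 ± 0.16. Saline rat 5 lay above 2 of the 6 heroin rats for the Rab probes. The Rab median minus that of all probes was 1.10 ± 0.10 in heroin rats (0.95 to 1.21) and 1.01 ± 0.09 in saline rats (0.84 to 1.06), and these ranges overlapped. Within the shared scans of rats 2 to 6 the median Rab difference was 0.45, 0.47, 0.21, -0.17 and 0.14, beside 0.27, 0.28, 0.12, -0.10 and 0.22 for all probes. The Rab difference was the larger in size in 4 of the 5 scans and the smaller in the scan of rats 6, and in the scan of rats 5 both were negative. With scan as a random block (correlation between arrays of a scan -0.06) the Rab2b probe alone was called.

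**Figure D4:**
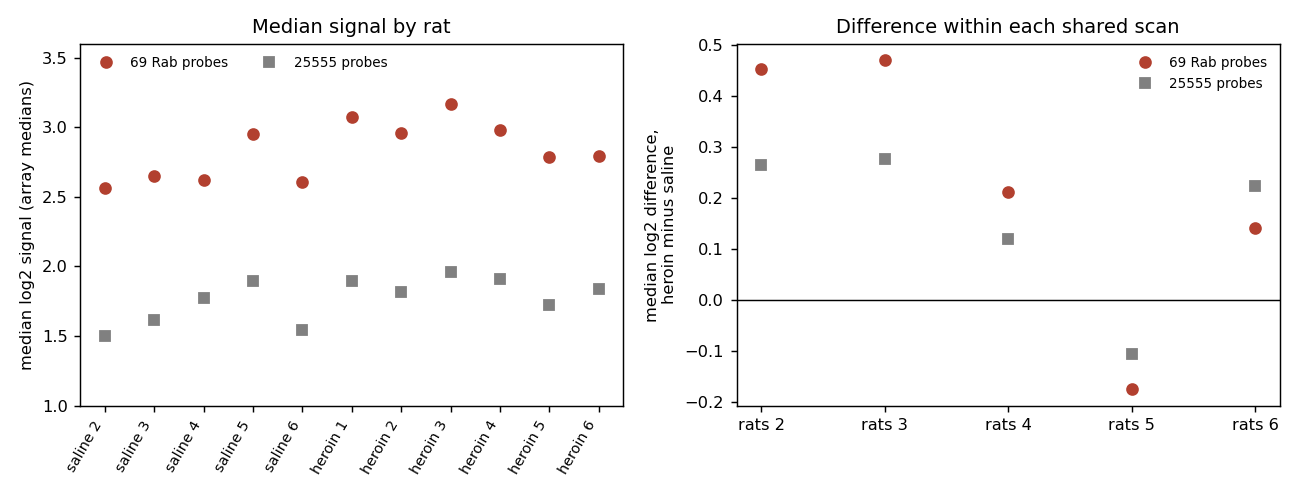
Left, median log2 signal in array medians of 69 Rab probes (red circles) and of all 25555 tested probes (grey squares) in each of 5 saline and 6 heroin rats. Right, median log2 difference, heroin minus saline, in each of 5 scans that held both groups, labelled by the rat number the pair shares. The Rab and all-probe medians move together from rat to rat, and the scan of rats 5 is below 0 for both (-0.17 and -0.10).

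The number of Rab calls rested on single rats. Heroin rat 3 was the highest of all rats for 21 of 69 Rab probes and the lowest for 0, and heroin rat 6 was the highest for 18 and the lowest for 13. Saline rat 2 was the lowest for 23 and saline rat 3 for 12, and saline rat 5 was the highest for 8, against at most 1 in each other saline rat. Without saline rat 5, 8 Rab probes were called (background 9.21%), of Rab2b, Rab3c, Rab7, Rab9, Rab11a, Rab21 and Rab28. Without heroin rat 6 there were 4 (background 3.08%), and without heroin rat 5 there were 3 (background 3.68%). Without both heroin rat 6 and saline rat 5, a pair chosen after the data were seen, there were 12 of 69 (17.4%, background 10.6%), all higher in heroin rats. In that setting 25 Rab probes had an adjusted p below 0.05 in limma, as did 4705 of 25538 probes in all. Without saline rat 2 there were 0 Rab calls, beside 343 of all 25550 probes. Without saline rat 3 there were also 0, beside 393 of 25550. In each case 9 Rab probes had an unadjusted p below 0.05 in limma, beside 2376 and 2456 of all probes. With array weights, which count variable arrays for less, 10 Rab probes were called (14.5%, background 9.31%). Calls over all 25555 probes moved too, from 694 with all rats to 2352 without saline rat 5, 788 without heroin rat 6 and 2699 without both. The part of these 2 rats in the Rab counts was not tested further.

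The machinery that acts on Rabs gave no calls on the brightest probe of each gene. Of 114 listed genes (GDI and prenylation, GEFs, GAPs and effectors), 67 were on the array and 59 were tested. Of the 59, 0 were past both thresholds (2.72% of all probes), a count too small to set apart from that share. An unadjusted p below 0.05 by limma was found for 9 (18.5% of all probes). The median change was 0.20, and -0.01 after quantile normalization. The 5 GDI and prenylation genes had a median of 0.26, the 15 GEFs 0.21, the 11 GAPs 0.17 and the 28 effectors 0.11. Gdi2, a dissociation inhibitor, had 65.6 ± 4.29 array medians in heroin rats and 53.9 ± 9.79 in saline rats (SD), a change of 0.30 (SE 0.13). Its other tested probe had a larger change, 0.54, and was not part of the count, which used brightest probes only. Chosen after their values were seen, the lowest of the 59 brightest probes was that of Sytl5, a Rab27 effector, at -0.48 (SE 0.17, adjusted p = 0.263). The highest of the 59 was that of Gorasp2, a Golgi stacking protein, at 0.43 (SE 0.16, adjusted p = 0.263). After quantile normalization Sytl5 (-0.39) and Gorasp2 (0.23) both kept their sign. So did other genes of the lists, among them Rabgef1, an exchange factor for Rab5, with -0.34 (SE 0.15) before and -0.41 after it. The Sytl5 probe was dim, with 0.59 array medians in heroin rats and 0.81 in saline rats.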

How the data were processed

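RNA of 11 rats was measured on 1-colour Agilent arrays (the methods describe 12 arrays, of which 11 were analysed here). Per the file headers, the deposited intensity values were made with Feature Extraction 9.5.1.1, which subtracts background. The authors also deposited relative values, a ratio of each probe to its median over arrays, used here only as an alternative. Following the methods, control and marked spots were left out, signals below 5 were set to 5, divided by the array's 50th percentile and put on the log2 scale, and spots of a probe were averaged. Probes were tested if detected (at least 0.5 of spots well above background) on all arrays and usable on at least 2 arrays per group. Groups were compared with limma 3.58.1 (R 4.3.3) and Benjamini-Hochberg adjustment. Genes were described by their brightest tested probe. The number of arrays limits the precision. Probe positions are on rn3, and names come from the array files, updated through RefSeq (49 probes by accession, 26 by symbol or synonym).

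Named were called Rab probes, the 5 Rab genes with the highest and the 5 with the lowest changes, a list of neuronal and housekeeping Rabs, and undetected Rab genes. The members and lists were chosen with earlier results of these data known. Alternatives covered scaling, background, filters, test, weights, blocks and left-out rats. The script was tested on simulated data.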

Additional observations from a re-analysis of the deposited data

Results flagged for a closer look

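In 11 of 89 groups of rats (the brightest Rab probes and the called Rab2b probe, in each group with at least 4 usable rats), 1 rat lay apart from the rest by Dixon's rule, where chance flags about 5% of groups. Heroin rat 6 accounted for 6 of them. It was the highest heroin rat for Rab6b (1076 array medians, next 812), Rab28 (176, next 106), Rab21 (47.4, next 30.8), Rab2l (19.3, next 13.5) and Rab11a (61.3, next 48.7), and the lowest for Rab10 (32.5, next 45.6). Saline rat 5 was the highest saline rat for Rab33a (14.5, next 11.4), Rab26 (157, next 116) and the brightest Rab2b probe (41.8, next 31.7), and the lowest for Rab43 (0.646, next 0.889). Saline rat 6 was the lowest for Rab24 (55.6, next 67.1). The cause was not tested.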

How the results depend on the processing

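The Rab2b call was lost, leaving 0 Rab probes past both thresholds, with 75th percentile scaling, scaling to the median of detected probes, quantile normalization, normexp background correction and the methods' t-test, and array weights gave 10 Rab probes and 5 brightest probes past them. The median Rab change moved to 0.0197 with the 75th percentile, 0.047 with the detected median and 0.0141 with quantile normalization. Leaving out each rat in turn gave 0 to 8 Rab probes, 0 to 6 brightest probes and 0 to 3 pathway genes past both thresholds. Without both heroin rat 6 and saline rat 5, chosen after seeing the data, the counts were 12, 8 and 5. Pathway genes past both thresholds on their brightest probes were 0 in the analysis as reported. They were 3 with the 75th percentile, 2 with the detected median and 2 with array weights. The sign differed from the reported one in 13 of 44 Rab genes after quantile normalization, 10 with the 75th percentile and 9 with the detected median, none of them called.

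Rats of the 2 groups share numbers 2 to 6, and deviations of same-numbered rats correlated at 0.38, -0.13, 0.35, 0.02 and -0.24. The numbers were not taken as pairs in the main fit. Same-numbered rats also shared a scan, so these correlations cannot show whether they were yoked partners. With the replicate number as a block, 1 Rab probe and 1 pathway gene were called, the median Rab change was 0.22 and 805 of 25541 probes were called. Over all probes, calls went from 694 to 122 with normexp, 308 with the methods' t-test (0 at an adjusted p of 0.05), 1560 without a detection filter, 1067 when detection in 1 group was enough, 2380 with array weights (7862 at an adjusted p of 0.05, 35 of them Rab probes) and from 343 to 2352 with 1 rat left out.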
